A study of Mus musculus with 4 samples.

Results

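The Hox genes encode homeodomain transcription factors that lie side by side in 4 clusters, Hoxa, Hoxb, Hoxc and Hoxd, numbered by paralogue group from 1 to 13. All 39 protein-coding genes whose symbols are Hox, a cluster letter and a number were found among the 21883 protein-coding genes of the RefSeq gene table, with 11 in Hoxa, 10 in Hoxb, 9 in Hoxc and 9 in Hoxd. Each region runs from the outermost annotated ends of a cluster's genes to 200 kb beyond them, and the 4 regions together span 2.09 Mb of mm10. They held the midpoints of 48 of 25625 CTCF peaks in the list from the medial ganglionic eminence (MGE) and of 63 of 31886 in the list from the telencephalon, counted on chromosomes 1 to 19, X and Y. A peak counts as shared when at least 1 bp of it overlaps a peak of the other list.

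The peaks come from chromatin immunoprecipitation and sequencing (ChIP-seq) of mouse embryos at embryonic day 13.5, with 1 CTCF library from whole telencephalon and 1 from MGE, the ventral forebrain zone where many cortical interneurons are born. The series has 4 samples, and the 2 input libraries are not analysed here. Sources used here give no strain, genotype or number of embryos per library, and the treatment label of every sample describes dissection of the MGE, also for the telencephalon libraries. The tissues also differ in library kit (the NEB ChIP-Seq kit for telencephalon and NEBNext Ultra II for MGE), and the track names in the file headers differ (p001 and p01), so that tissue, kit and calling cannot be told apart. The lists give positions and no read counts, so depth is unknown, and with 1 library per tissue no difference between tissues was tested.

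CTCF is a zinc finger protein that halts the extrusion of chromatin loops by cohesin, depending on the direction of its motif, and so marks many loop anchors and domain borders. Genes of a Hox cluster are switched on in order along the body axis, group 1 at the most anterior level and group 13 at the most posterior, and in tissues in front of the hindbrain they are largely silent and covered by Polycomb repression. CTCF sites between Hox genes are known from work in other cell types to separate active from repressed stretches of a cluster.

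The RefSeq promoter table (GRCm38.p6, the build of mm10) holds 24 start windows for 22 of the 39 Hox genes, and 71 windows in the 4 regions. Each window covers 250 bases before a start and 50 after it. In these regions 5 windows overlapped a peak, those of Hoxa5 and Hoxa10, of the antisense transcript Hoxd3os1, and of Ttll6 and Atp5g1 in the flank of Hoxb. The 250 bases before each of these starts are printed because they are the stretches of sequence known here that lie at a peak. Capitals mark matches on either strand to a CTCF core (the letters CC, any 3 bases, AG, any 2 bases, then GGC). Hoxa5 has none, and its capitals mark a match to a relaxed core (CC, any 4 bases, G, any 2 bases, then GGCGC), a form chosen after the windows were read.
Hoxa5: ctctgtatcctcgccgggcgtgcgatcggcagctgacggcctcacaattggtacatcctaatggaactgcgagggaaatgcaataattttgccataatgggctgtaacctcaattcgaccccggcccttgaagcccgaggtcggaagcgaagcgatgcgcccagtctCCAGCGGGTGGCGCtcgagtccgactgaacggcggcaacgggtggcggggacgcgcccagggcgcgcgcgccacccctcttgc
Hoxa10: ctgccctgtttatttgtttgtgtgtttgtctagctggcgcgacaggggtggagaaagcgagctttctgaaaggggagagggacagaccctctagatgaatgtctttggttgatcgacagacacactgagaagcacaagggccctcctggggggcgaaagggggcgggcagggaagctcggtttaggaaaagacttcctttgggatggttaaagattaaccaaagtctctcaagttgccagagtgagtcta
Hoxd3os1: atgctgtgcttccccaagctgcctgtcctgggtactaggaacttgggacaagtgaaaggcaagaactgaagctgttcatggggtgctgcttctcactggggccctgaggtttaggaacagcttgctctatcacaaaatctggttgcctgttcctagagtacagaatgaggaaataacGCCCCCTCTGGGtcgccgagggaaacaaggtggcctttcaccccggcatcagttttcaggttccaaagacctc
Ttll6: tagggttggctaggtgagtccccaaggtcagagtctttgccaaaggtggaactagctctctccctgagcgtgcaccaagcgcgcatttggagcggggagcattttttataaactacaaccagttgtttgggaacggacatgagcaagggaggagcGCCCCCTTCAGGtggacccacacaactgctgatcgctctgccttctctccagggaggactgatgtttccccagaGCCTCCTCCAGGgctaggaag
Atp5g1: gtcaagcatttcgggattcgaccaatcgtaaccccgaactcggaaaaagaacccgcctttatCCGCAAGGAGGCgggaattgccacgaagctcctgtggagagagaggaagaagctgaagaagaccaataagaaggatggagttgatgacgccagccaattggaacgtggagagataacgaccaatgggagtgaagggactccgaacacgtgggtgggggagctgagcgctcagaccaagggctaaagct

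Printed 5′ to 3′ on the strand of each gene, these windows are chr6:52204588-52204837 (minus strand) for Hoxa5, chr6:52240855-52241104 (minus) for Hoxa10, chr2:74716131-74716380 (minus) for Hoxd3os1, chr11:96133536-96133785 (plus) for Ttll6 and chr11:96075632-96075881 (minus) for Atp5g1. A peak overlapped 1 of the 24 Hox windows in MGE (4.17%, against 3.83% of all windows) and 2 in telencephalon (8.33%, against 6.46%), shares near those of the whole table. The core was found in 4 of the 24 Hox windows (16.7%) and in 3 of the 5 windows printed, against 8.61% of all 32851 windows of the table. Those 4 Hox windows overlap no peak, because the Hox windows that do, Hoxa5 and Hoxa10, lack the core. Over the whole table the core stood in 40.9% of windows that overlap an MGE peak and in 33.5% of those that overlap a telencephalon peak. In windows that overlap neither it stood in 6.82%. A stricter core with AGGGGGC at its end, whose matches are also matches to the first core, occurred in Hoxd3os1 and Ttll6 (2 of 5 windows). The 5 windows were taken because they overlap a peak. Among all windows 1.28% held the stricter core, against 16.3% of those that overlap an MGE peak and 11.9% of those that overlap a telencephalon peak. The Ttll6 match CCTGAAGGGGGC (chr11:96133691-96133702, minus strand) lay inside the peaks of both lists. The Atp5g1 match CCGCAAGGAGGC (chr11:96075808-96075819) lay inside a peak of the telencephalon list, which has no MGE partner. The Hoxd3os1 match CCCAGAGGGGGC (chr2:74716192-74716203) lay beyond the edge of the MGE peak, which ends at 74716151. In Hoxa5 the relaxed match CCAGCGGGTGGCGC (chr6:52204657-52204670) lay inside both peaks. The relaxed core occurs in 3.78% of all windows, in 26.6% of those that overlap an MGE peak and in 19.4% of those that overlap a telencephalon peak. The Hoxa10 window held neither core.

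Pooled over the 4 regions, peaks were denser than over the genome, and most MGE peaks had a partner. In the MGE list 40 of 48 peaks were shared (83.3%, exact 95% interval 69.8 to 92.5%), against 58.4% over the whole list. In the telencephalon list 40 of 63 were shared (63.5%, 50.4 to 75.3%), against 47.0% over the whole list. Intervals here are exact Clopper-Pearson or, for densities, exact Poisson intervals, they cover counting error alone, and they treat neighbouring peaks as independent. Density came to 22.9 MGE peaks per Mb (16.9 to 30.4) and 30.1 telencephalon peaks per Mb (23.1 to 38.5), against 9.41 and 11.7 per Mb over chromosomes 1 to 19, X and Y. The Hoxb and Hoxc regions carried most of this, with 24.4 and 33.0 MGE peaks and 47.0 and 38.8 telencephalon peaks per Mb. The Hoxa region had 13.8 MGE peaks per Mb (5.57 to 28.5) and 15.8 telencephalon peaks (6.83 to 31.2), and the Hoxd region 20.1 (9.65 to 37.0) and 16.1 (6.95 to 31.7). For Hoxa in both lists and for Hoxd in telencephalon these intervals include the density of the whole list. Wider peaks were shared more often throughout the lists. When each list's sharing by 4 width classes was applied to the widths of the Hox peaks, 67.3% of MGE and 50.2% of telencephalon peaks would be shared. With peaks narrower than or equal to the list median removed from both lists, 22 of 32 MGE peaks were shared (68.8%). No whole-list share under that cut is given here, so 68.8% cannot be set against the 58.4% or 67.3% of the full lists.

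**Figure D1:**
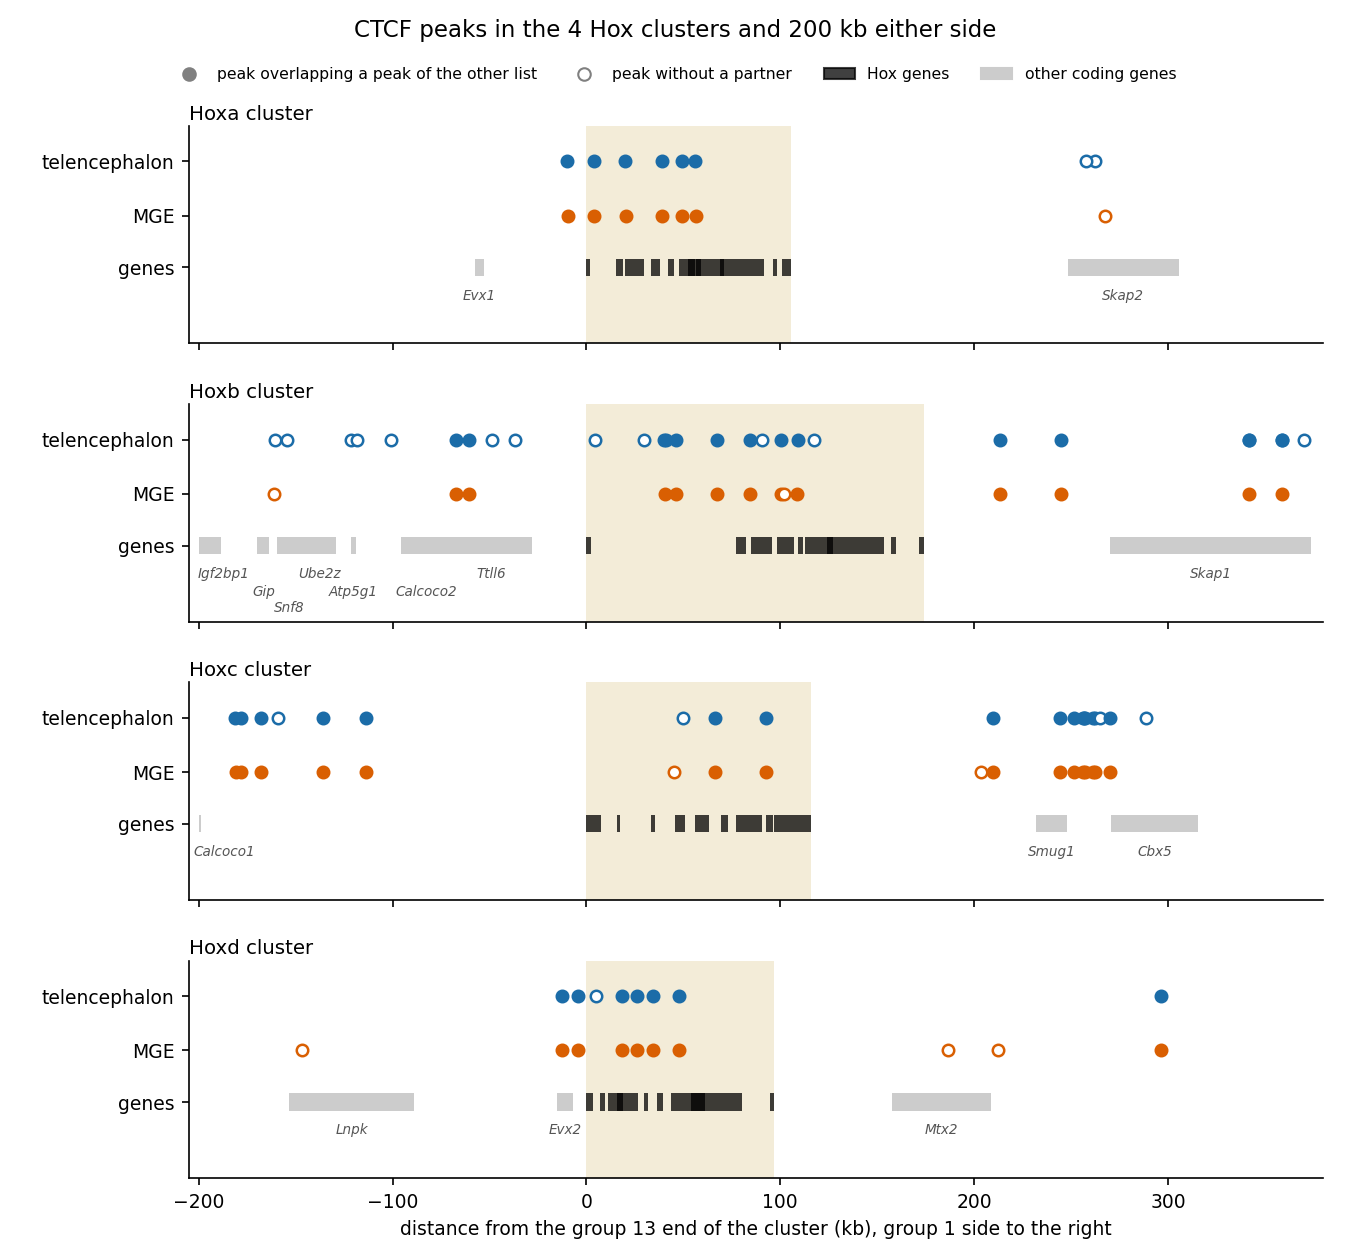
CTCF peaks (points at peak midpoints; filled, overlapping a peak of the other list; open, without a partner) against distance in kb from the group 13 end of each cluster, with clusters shaded, Hox genes in black and other coding genes in grey; close points hide each other. Open points are most numerous in the telencephalon row of the Hoxb region (15 of 27 peaks, with 44.4% shared against 47.0% over the whole list). The right end of each shaded cluster holds no points.

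Pooled over the 4 clusters, most sites inside them were in both lists, but this did not hold for each cluster. Merged across lists, the 4 clusters held 26 sites, of which 17 were in both lists, 2 in the MGE list alone and 7 in the telencephalon list alone. Sites in both lists made up 5 of 5 in Hoxa, 4 of 5 in Hoxd, 6 of 12 in Hoxb and 2 of 4 in Hoxc. Counted as peaks, 17 of 19 in MGE were shared (89.5%, against 58.4% over the whole list) and 17 of 24 in telencephalon (70.8%, against 47.0%). The flanks held 45 sites, with 23 in both, 6 in MGE alone and 16 in telencephalon alone. Density inside the clusters was 38.6 MGE peaks per Mb (23.2 to 60.3) and 48.8 telencephalon peaks per Mb (31.2 to 72.6), and in the flanks 18.1 and 24.4 per Mb. The intervals of cluster and flank overlapped in both lists (12.1 to 26.0 and 17.3 to 33.3 per Mb in the flanks).

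The Hoxa cluster (chr6:52155367-52260880, minus strand) held 5 sites, all in both lists. The first covered the start of Hoxa5, at chr6:52204451-52204717 in MGE and chr6:52204501-52204800 in telencephalon. It lay 141 bp and 58 bp from the 3′ end of Hoxa6. The next, chr6:52211452-52211924 in MGE (473 bp) and chr6:52211554-52211998 in telencephalon (445 bp), lay between Hoxa6 and Hoxa7, within a long annotated form of Hoxa3. Between Hoxa7 and Hoxa9 there were peaks at chr6:52221612-52222081 (470 bp) and chr6:52221648-52222201 (554 bp). At the start of Hoxa10 the MGE peak (chr6:52240383-52240742) ended 112 bp short of the start, and the wider telencephalon peak (chr6:52240402-52241023, 622 bp) covered it. The last pair, chr6:52256940-52257251 and chr6:52256997-52257233, lay between Hoxa11 and Hoxa13. A sixth shared site stood 9.62 kb beyond Hoxa13 on the side of Evx1, a homeobox gene next to the cluster, at chr6:52270500-52270743 in MGE and chr6:52270541-52270990 in telencephalon. Neither list had a peak in the 201 kb between the Hoxa5 site and the nearest site in Skap2, an adaptor protein gene (chr6:52003008-52204450), and this stretch holds Hoxa2 and Hoxa4.

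The Hoxd cluster (chr2:74668225-74765142) held 4 sites in both lists and 1 in telencephalon alone. The shared peaks lay in the overlapping annotations of Hoxd11 and Hoxd10 (chr2:74686278-74686637 in MGE, chr2:74686392-74686640 in telencephalon), near the 3′ end of Hoxd10 (chr2:74694108-74694373 and chr2:74694109-74694319), between Hoxd9 and Hoxd8 (chr2:74702228-74702520 and chr2:74702154-74702525) and in Hoxd3 beside the start of Hoxd3os1 (chr2:74715661-74716151 and chr2:74715793-74716038). The telencephalon list alone had a 332 bp peak between Hoxd13 and Hoxd12 (chr2:74673079-74673410), 9274 bp from the closest peak of the MGE list. On the group 13 side there were 2 further shared sites close to the cluster. One lay 4.42 kb from Hoxd13 (chr2:74663562-74663805 in MGE), and the other in Evx2, a homeobox gene (chr2:74655637-74655989 in MGE, chr2:74655491-74655640 in telencephalon). The Evx2 peaks overlapped by 4 bp, so this pair counts as shared by a narrow margin.

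The Hoxc cluster (chr15:102921131-103036856) had the fewest sites for its length, 2 in both lists and 1 in each list alone. The shared sites lay between Hoxc9 and Hoxc8 (chr15:102987382-102987814 in MGE, chr15:102987370-102987819 in telencephalon) and just before the start of Hoxc5 (chr15:103013552-103013810 and chr15:103013577-103013836). The unshared peaks were at the narrowest width of each list. The MGE peak (chr15:102966416-102966659, 244 bp) lay 137 bp from the start of Hoxc10, and the telencephalon peak (chr15:102970904-102971053, 150 bp) lay inside the same gene, 4245 bp away. Neither list had a peak in Hoxc13, Hoxc12 or Hoxc11.

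The Hoxb cluster (chr11:96194316-96368254) is the longest, because a wide gap separates Hoxb13 from Hoxb9, and it held 6 sites in both lists, 1 in MGE alone and 5 in telencephalon alone. The gap held 3 shared sites, at chr11:96234924-96235293, chr11:96240254-96240561 and chr11:96261537-96261989 in MGE. The other shared sites lay between Hoxb9 and Hoxb8 (chr11:96278742-96279098 in MGE, chr11:96278804-96279098 in telencephalon), in Hoxb6 (chr11:96294351-96294843 and chr11:96294496-96295177, the widest telencephalon peak inside a cluster at 682 bp) and before Hoxb5 (chr11:96303030-96303331 and chr11:96303123-96303396). The MGE list alone had a 244 bp peak in Hoxb6 (chr11:96295910-96296153), 733 bp from the nearest telencephalon peak. The telencephalon list alone had peaks beside Hoxb13 (chr11:96198393-96198855, 463 bp), in the gap (chr11:96223912-96224112 and chr11:96234366-96234592), near the 3′ end of Hoxb8 (chr11:96284583-96284795) and in Hoxb3 upstream of Hoxb4 (chr11:96311454-96311859, 406 bp). That at chr11:96234366-96234592 lay 332 bp from an MGE peak, and those beside Hoxb13 and in Hoxb3 lay 36069 bp and 8123 bp from one. The peaks beside Hoxb13 and in Hoxb3 were wider than the telencephalon median of 276 bp.

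Aligned by paralogue group, the clusters had peaks at recurring places. For this, each gene was given the stretch from the 3′ end of its neighbour of next higher number to its own 3′ end, a division chosen after the positions were seen, because the long annotated forms of Hoxa3, Hoxb3, Hoxd3 and others overlap their neighbours. The strand was taken from the promoter table, where all entries of a cluster have the same one. The stretch on the group 1 side of the Hox9 gene held a shared peak in all 4 clusters, assigned to Hoxa7 (Hoxa has no group 8 gene), Hoxb8, Hoxc8 and Hoxd8. A shared peak was found in 15 of all 39 stretches (38.5%) and in 10 of the 15 stretches of groups 4 to 8 (66.7%), and the stretch beside Hox9 was picked for its count. These peaks lay 3039, 303, 2725 and 2095 bp from the starts of those genes in the MGE list and 3075, 303, 2720 and 2090 bp in the telencephalon list. The Hoxb8 start is the outermost one annotated, and the start in the promoter table lies further inside the gene.

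The 3 group 5 genes, Hoxa5, Hoxb5 and Hoxc5, each had a shared peak at or just before the start. In MGE it lay 0, 181 and 198 bp from the start and in telencephalon 0, 116 and 172 bp. Across the 39 genes a peak lay within 1 kb of the start in 6 genes in each list, with Hoxa5, Hoxa10, Hoxb5, Hoxb8 and Hoxc5 in both, Hoxc10 in MGE and Hoxb7 in telencephalon. Of all starts in the promoter table, 7.26% in MGE and 12.2% in telencephalon had a peak within 1 kb. These sets are unlike: the table holds 32851 starts of 27025 genes, with 22 of the 39 Hox genes. The Hox count takes the outermost annotated start of each gene. The group 5 peaks were of modest width (267, 302 and 259 bp in MGE; 300, 274 and 260 bp in telencephalon). With the narrower peaks removed from both lists, 0 of these 3 pairs remained, against 3 of the 4 pairs beside the Hox9 genes. Under the 3 other rules of sharing and list length tried, all 7 pairs remained.

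**Figure D2:**
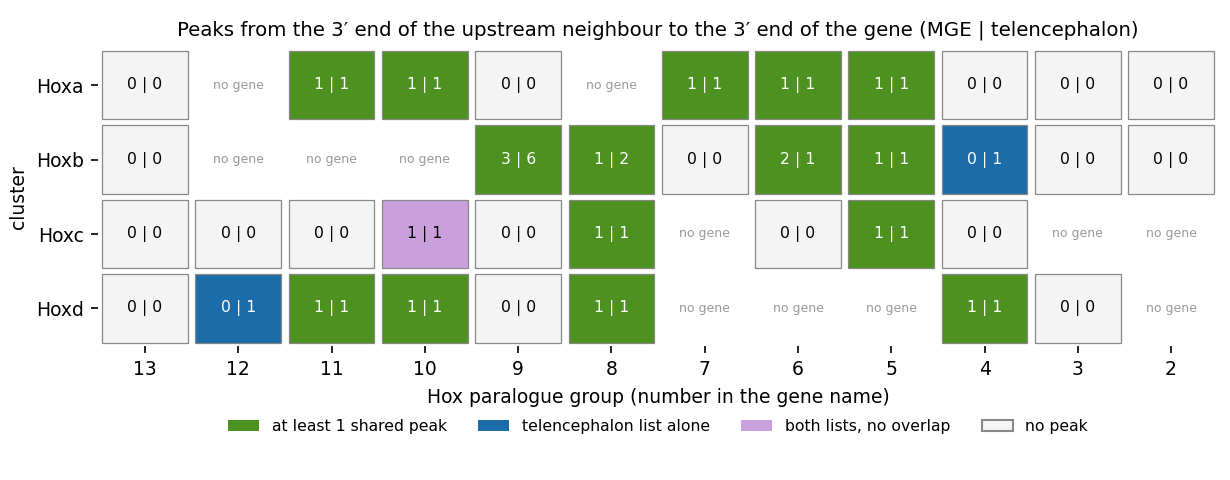
Number of peak midpoints (MGE | telencephalon) in the stretch belonging to each Hox gene, by cluster (rows) and paralogue group (columns, groups 13 to 2). Groups 2 and 3 have 0 peaks in all 5 stretches drawn, and the group 5 and group 8 columns are filled with shared peaks in all 6.

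The group 1 ends of the clusters had no peaks. The stretches of the 8 genes of groups 1 to 3, 117 kb in all, held 0 peaks in either list. At the density of the whole lists that length would hold 1.10 MGE and 1.37 telencephalon peaks. These groupings were also chosen after the positions were seen. The annotated bodies of Hoxa3 and Hoxd3 overlap peaks of both lists, and that of Hoxb3 overlaps a telencephalon peak. The division gives these peaks to genes of higher number, so the 0 holds for the stretches and not for the gene bodies. Hoxc has no gene of groups 1 to 3 and adds nothing to the 117 kb. Groups 4 to 8, the middle of the clusters, had 11 MGE and 12 telencephalon peaks in 160 kb, or 68.8 per Mb (34.4 to 123) and 75.1 per Mb (38.8 to 131). Groups 9 to 13 had 8 and 12 peaks in 215 kb, or 37.1 per Mb (16.04 to 73.2) and 55.7 per Mb (28.8 to 97.3). The upper Poisson limit for the empty stretches was 31.6 per Mb in each list. The 4 stretches of group 13 were also empty, but they cover the gene bodies alone.

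**Figure D3:**
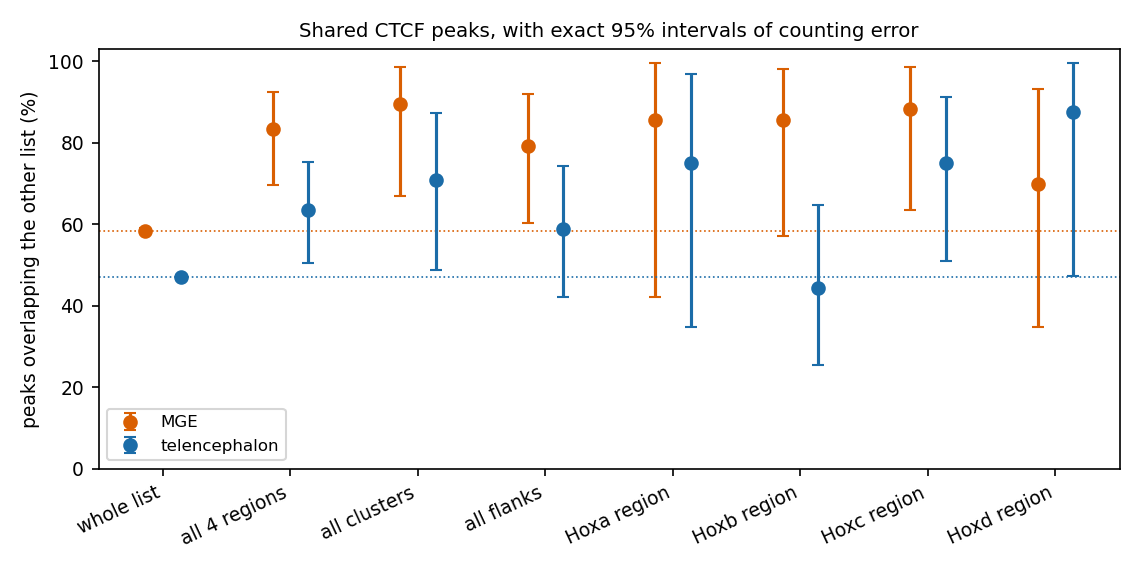
Percent of peaks that overlap the other list (points, with exact 95% Clopper-Pearson intervals) in the whole lists, in the Hox regions and in each region, with dotted lines at the whole-list shares of 58.4% (MGE) and 47.0% (telencephalon). The Hoxb region has the lowest telencephalon share, 44.4%, beside an MGE share of 85.7%.

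The telencephalon list held most of the unshared peaks, and most of those lay in the Hoxb region. In that region 12 of 14 MGE peaks were shared (85.7%, interval 57.2 to 98.2%), against 58.4% over the whole list. Of its 27 telencephalon peaks 12 were shared (44.4%, 25.5 to 64.7%), near the 47.0% of the whole list. The region held 27 of the 63 telencephalon peaks, and 15 of the 23 without a partner. The Hoxa and Hoxc regions gave telencephalon shares of 75% each (6 of 8 and 15 of 20) and the Hoxd region 87.5% (7 of 8), and these intervals overlapped that of Hoxb. The Hoxd region was the one with more MGE peaks (10) than telencephalon peaks (8), and 3 of the 8 unshared MGE peaks were there. Among 5433 consecutive tiles of 500 kb, 3.22% (MGE) and 1.42% (telencephalon) held at least as many peaks per length as the Hoxb region. For the Hoxc region 0.81% of tiles (MGE) and 3.35% (telencephalon) did. For the Hoxa region 24.4% of tiles (MGE) and 31.0% (telencephalon) did, and for the Hoxd region 6.28% and 26.0%.

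The flanks differed from cluster to cluster. The group 13 side of Hoxb, which holds housekeeping genes such as Snf8, Ube2z and Atp5g1, had 3 MGE and 9 telencephalon peaks with 2 shared. Both shared peaks lay in Ttll6, a tubulin glutamylase gene, and the nearer one to Hoxb13 covered an annotated start of it (chr11:96133468-96133840 in MGE, chr11:96133569-96133832 in telencephalon). Either end of Atp5g1, a subunit of the mitochondrial ATP synthase, had a telencephalon peak without a partner (chr11:96072515-96072752 and chr11:96075774-96075969), and the nearest MGE peaks were 39214 and 42473 bp away. At chr11:96033031-96033301 an MGE peak and at chr11:96033364-96033534 a telencephalon peak lay 63 bp apart near Snf8, and so count as unshared by a narrow margin. The widest unshared telencephalon peak on this side lay 5232 bp from Calcoco2, an autophagy receptor gene (chr11:96093380-96093684, 305 bp). The group 1 side of Hoxb had 4 MGE peaks, all shared, and 7 telencephalon peaks. The nearest of them stood 39.5 kb from Hoxb1 (chr11:96407704-96408011 in MGE), and the widest MGE peak of any Hox region lay in Skap1, an adaptor protein gene (chr11:96536024-96536548, 525 bp). The widest unshared telencephalon peak there was also in Skap1 (chr11:96564160-96564397, 238 bp). The other unshared ones, chr11:96535797-96535983 and chr11:96552933-96553082, lay 41 and 173 bp from shared MGE peaks, and so count as unshared by a narrow margin.

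The group 1 side of Hoxc, toward Smug1, a uracil-DNA glycosylase gene, and Cbx5, which encodes the heterochromatin protein HP1 alpha, had the densest run of sites. Between chr15:103165452 and 103191441, a span of 26.0 kb, there were 9 sites, of which 7 were in both lists and 2 in telencephalon alone. The widest pair in this run was chr15:103182084-103182526 in MGE (443 bp) and chr15:103182142-103182682 in telencephalon (541 bp), 9020 bp and 8864 bp from Cbx5. The last pair (chr15:103191110-103191441 in MGE) lay 105 bp from the end of Cbx5. Among the MGE peaks of this flank, that nearest to the cluster was unshared (chr15:103124497-103124740, 244 bp, 6044 bp from a telencephalon peak). On the group 13 side of Hoxc all 5 MGE peaks were shared. One of their partners was the widest peak of the Hox regions (chr15:102753090-102753862, 773 bp). Nearby, a telencephalon peak of 734 bp (chr15:102761536-102762269) had no MGE peak within 7972 bp, and was the widest unshared peak of the regions.

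The flanks of Hoxa and Hoxd were sparse. The Hoxa flanks had 2 MGE and 3 telencephalon peaks, and those in Skap2 had no partners (chr6:51993245-51993598 in MGE, chr6:51998493-51998723 and chr6:52002811-52003007 in telencephalon). The region border cuts through Skap2, and over its whole length the gene held 3 MGE and 5 telencephalon peaks, with 2 shared in each list. The Hoxd flank on the group 1 side had 3 MGE peaks and 1 telencephalon peak. The shared pair lay just inside the border of the region, 199 kb from Hoxd1 (chr2:74964349-74964846 in MGE, chr2:74964343-74964972 in telencephalon). The unshared MGE peaks lay in and beyond Mtx2, a mitochondrial import gene (chr2:74854641-74854895, 255 bp, and chr2:74880687-74880930, 244 bp), with the nearest telencephalon peaks 109448 and 83413 bp away. In Lnpk, which encodes lunapark, an MGE peak of 244 bp (chr2:74521287-74521530) lay 133961 bp from the nearest telencephalon peak. Empty stretches of 138 kb (chr2:74716152-74854640) and 134 kb (chr2:74521531-74655490) bounded the group of peaks around Hoxd, and between them stood the 6 shared sites from Evx2 to Hoxd3 with the 1 in telencephalon alone.

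**Figure D4:**
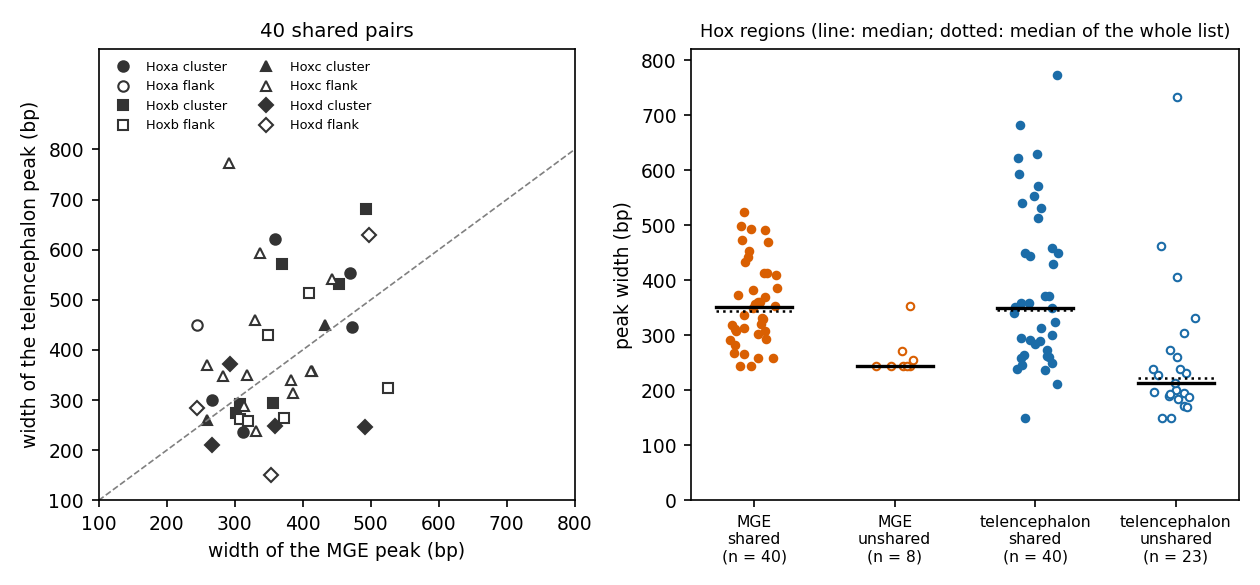
Left, width in bp of the telencephalon peak against that of its MGE partner for the 40 shared pairs of the Hox regions (dashed line, equal widths). Right, width of each Hox-region peak by list and class, with medians as lines and whole-list medians dotted; unshared MGE peaks stay below 360 bp and 5 of 8 are at the narrowest width of their list.

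Shared peaks were wider than unshared ones, as over the whole lists. Inside the clusters the 17 shared MGE peaks had a median width of 360 bp (259 to 493 bp), and both unshared ones measured 244 bp, the narrowest width in the MGE list. The 17 shared telencephalon peaks had a median of 300 bp (211 to 682 bp) and the 7 unshared ones 227 bp (150 to 463 bp). In the flanks the medians were 337 bp for shared and 249.5 bp for unshared MGE peaks, and 351 bp and 196.5 bp for telencephalon peaks. Over the whole lists shared peaks had medians of 345 bp (MGE) and 346 bp (telencephalon), and unshared peaks 244 bp and 223 bp. Partner peaks were centred close to each other, with a median offset of 58.5 bp between midpoints (interquartile range 24.0 to 77.3 bp), against 47.0 bp (21 to 85 bp) for all 14976 shared MGE peaks. In 21 of the 40 pairs the telencephalon peak was wider and in 19 the MGE peak.

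Gene ends, the annotated outer limits of a gene with 1 kb on either side, overlapped an MGE peak for 9 of the 39 genes (23.1%, 11.1 to 39.3%) and a telencephalon peak for 11 (28.2%, 15.0 to 44.9%), against 12.1% and 19.3% of all protein-coding genes. All 9 were among the 11: Hoxa5, Hoxa6, Hoxa10, Hoxb5, Hoxb8, Hoxc5, Hoxc10, Hoxd10 and Hoxd11. For Hoxc10 the lists count different peaks, the unshared pair 4245 bp apart described above. Neighbouring genes can be counted for the same peak, as Hoxa5 and Hoxa6 are. Hoxa9 and Hoxb7 were counted in telencephalon and not in MGE, and for Hoxa9 the peaks are a shared pair 1016 bp and 896 bp from the gene. With 2 kb at each end the counts were 15 and 20, and for the wider peaks alone 4 and 5. Shares of all protein-coding genes at these settings are not given here, so these counts cannot be set against 12.1% and 19.3%. Far from any peak lay Hoxd1 (46829 bp in MGE, 46942 bp in telencephalon), Hoxb2 (48301 and 39773 bp), Hoxa2 (39620 and 39670 bp), Hoxb1 (39450 and 39506 bp) and Hoxc13 (37602 and 42090 bp). The microRNA genes of the clusters, whose products repress Hox and other messages, were placed likewise. Mir615 lay 1116 bp (MGE) and 1090 bp (telencephalon) from the shared peak before Hoxc5, and Mir196a-1 lay 3175 and 3197 bp from the last shared peak of the gap before Hoxb9. Mir10b lay 9919 and 10032 bp from a peak, Mir196b 8000 and 7880 bp, Mir10a 13834 and 5306 bp, and Mir196a-2 6691 and 2297 bp.

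Of the 16 other protein-coding genes that reach into the flanks, 2 had a gene-end peak in MGE (Skap2 and Cbx5) and 4 in telencephalon (the same 2 with Atp5g1 and Skap1). For Skap2 and Skap1 these peaks lie at the gene end outside the Hox regions. Genes that act with or on the Hox clusters lie elsewhere in the genome and were counted the same way. Of 9 genes for Hox cofactors, TALE homeodomain proteins that bind DNA jointly with Hox proteins, Meis3 had such a peak in each list (chr7:16174940-16175315 in MGE), and Meis1, Pknox1 and Pknox2 in telencephalon but not in MGE. Of 10 caudal and retinoid genes, Rara, which encodes a retinoic acid receptor, had one in each and Aldh1a2, a retinoic acid synthesis enzyme gene, in telencephalon. Of 11 Trithorax and other regulators, Kmt2b, a histone methyltransferase gene, and Ctcf had one in both lists, Zfp143 in MGE and Wdr5 in telencephalon. These counts sit beside the same shares of all protein-coding genes, 12.1% and 19.3%.

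Other clustered gene families, taken with the same 200 kb flanks, gave densities below or within the range of the 4 Hox regions. The Iroquois homeobox clusters, in gene deserts, had 6.43 peaks per Mb in each list around Irx1, Irx2 and Irx4, and 6.24 MGE and 10.1 telencephalon peaks per Mb around Irx3, Irx5 and Irx6. Their MGE peaks were shared in 6 of 11 and 4 of 8 cases. Around the 57 clustered protocadherin genes there were 19.1 MGE and 25.2 telencephalon peaks per Mb, and 16 of 25 MGE peaks were shared (64.0%, interval 42.5 to 82.0%). Of the 33 telencephalon peaks there, 16 were shared (48.5%, interval 30.8 to 66.5%), against 47.0% over the whole list. The protocadherin densities lay inside the pooled Hox intervals. They were above the densities of the Hoxa region (13.8 MGE and 15.8 telencephalon peaks per Mb) but inside its intervals. The intervals of both protocadherin shares overlapped those for the Hox regions, and no difference was tested.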

How the data were processed

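The series has 4 ChIP-seq samples, CTCF and input from telencephalon and from MGE, and the peaks of both CTCF samples were analysed. Bowtie2 (version 2.3.2), MACS2 (version 2.1.1.20160309) and build mm10 are named, per the submitters' processing notes. Threshold, control and filters: not given in the sources used here. Other than positions (chromosome, start, end), the authors' deposited lists hold no value, so width is the sole measure of a peak and no counts, depth or scores enter. Groups follow the sample titles. The Hox members and lists were chosen with earlier results of these data known.

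Kept were peaks on the autosomes, X and Y (25625 of 25710 and 31886 of 31979), placed by midpoint and given 1-based. Distances are differences between nearest edges. Gene positions, promoter sequences and microRNAs came from RefSeq on GRCm38.p6. Named were all Hox genes, every peak inside a cluster, and in each flank the widest shared, the widest unshared and the nearest peak, as far as they add to the text. Further flank peaks and the stretches by paralogue group were chosen after the values were seen. No test was run, since each tissue has 1 library. Intervals are 95% exact (scipy 1.17.1). The overlap step was tested on simulated lists. Alternatives varied the overlap rule, flank, width, list length, gene-end window and motif. Some single genes and the Polycomb gene list are not reported here.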

Additional observations from a re-analysis of the deposited data

How the results depend on the processing

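Of 42 alternative values, 30 stayed within the interval of the reported value or within 1.5 times a reported count, and 12 did not. Among the 30 are values that could not move. Cutting the telencephalon list to the length of the MGE list leaves the MGE density and the MGE gene-end count unchanged by construction. Removing peaks no wider than the list median gave 68.8% of MGE peaks shared, 15.3 MGE and 16.3 telencephalon peaks per Mb, 9 shared MGE peaks in the clusters and 13 in the flanks (17 and 23 in the full lists), and gene-end peaks at 4 Hox genes in MGE and 5 in telencephalon (9 and 11). This alternative also removes partners, by its construction. With flanks of 0 kb the densities were 38.6 and 48.8 per Mb. Gene ends of 2 kb gave 15 Hox genes in MGE and 20 in telencephalon, and ends of 500 bp gave 7 in telencephalon. No share of all protein-coding genes is given for these gene ends or for the wider peaks, so these counts have no background beside them. The motif cores other than the first were chosen or added after seeing the data. No paired analysis was possible because each tissue has 1 CTCF library and no result comes from a test.

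A site missing from a list was not called there, which does not show that CTCF was absent, and with no read counts the depth behind any peak is unknown. Sequence was at hand for promoter windows alone, so most Hox peaks could not be searched for the motif.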
